A study of Rattus norvegicus with 9 samples.

Results

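The report concerns 36 rat genes for proteins that choose splice sites: 12 SR and SR-like proteins, 19 heterogeneous nuclear ribonucleoproteins (hnRNPs) and 5 factors that recognise the 3′ splice site. They were chosen by name. A gene's level was the sum of the TPM (a length-corrected abundance that sums to the same total in each library) of the reference transcripts with its name and of assembled transcripts at a locus with no other name. Of the 36, 35 had a transcript under their name among 34738 gene units in all, and 34 had a mean of at least 1 TPM and were tested. No transcript line carried the name Hnrnpa0, and Hnrnph2 lay below that minimum.

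The RNA came from CD4+ T cells in the blood of SD rats 8 to 10 weeks old, and each of 3 groups had 3 libraries. The combination group was CIA rats given a combination of compounds, which the labels do not name, for 4 weeks. The model group was CIA rats without that treatment, and the normal group had neither. CIA was read as collagen-induced arthritis because the series title names rheumatoid arthritis. The labels do not say how the cells were selected or whether each library was 1 animal, so p-values measure the spread between libraries, which may be technical.

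SR proteins bind exonic enhancers through RNA recognition motifs and recruit the splicing machinery through domains rich in arginine and serine. The hnRNPs coat nascent RNA and often repress the exons they bind, so the balance of both families helps to set which exons are kept. U2AF, SF3A, SF3B and PUF60 act where the intron ends, at the branch point and the polypyrimidine tract. In T cells of mouse and human, hnRNP L and hnRNP LL repress variable exons of the CD45 gene Ptprc during activation. Many genes of these families in mouse and human also carry conserved exons whose inclusion leads to decay of their own mRNA.

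The 250 bases before the annotated start are shown for 4 SR family genes on which the results turn: Srsf5, which fell in combination libraries, Srsf1, whose isoforms changed, and Srsf3 and Tra2b, among the 4 of smallest p between model and normal libraries. The sequences are from RefSeq on the GRCr8 build, all on the plus strand, 5′ to 3′. Capitals mark TGACGT or its reverse complement ACGTCA, the core of the cAMP response element, a motif picked after these sequences were seen.
Srsf1, chr10:73336248-73336497: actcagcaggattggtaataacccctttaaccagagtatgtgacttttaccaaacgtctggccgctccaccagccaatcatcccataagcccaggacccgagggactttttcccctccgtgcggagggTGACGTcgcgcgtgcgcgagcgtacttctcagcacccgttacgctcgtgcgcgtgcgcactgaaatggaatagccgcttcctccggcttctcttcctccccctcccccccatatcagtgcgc
Srsf3, chr20:7093335-7093584: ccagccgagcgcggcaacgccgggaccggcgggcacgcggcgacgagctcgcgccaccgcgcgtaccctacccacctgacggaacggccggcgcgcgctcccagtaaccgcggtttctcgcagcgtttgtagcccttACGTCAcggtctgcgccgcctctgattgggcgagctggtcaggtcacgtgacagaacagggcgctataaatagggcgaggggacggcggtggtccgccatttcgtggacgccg
Srsf5, chr6:106336506-106336755: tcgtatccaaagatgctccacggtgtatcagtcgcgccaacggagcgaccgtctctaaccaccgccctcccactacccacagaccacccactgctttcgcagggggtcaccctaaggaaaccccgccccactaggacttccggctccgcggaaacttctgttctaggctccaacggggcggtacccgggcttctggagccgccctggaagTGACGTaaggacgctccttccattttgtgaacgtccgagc
Tra2b, chr11:92293192-92293441: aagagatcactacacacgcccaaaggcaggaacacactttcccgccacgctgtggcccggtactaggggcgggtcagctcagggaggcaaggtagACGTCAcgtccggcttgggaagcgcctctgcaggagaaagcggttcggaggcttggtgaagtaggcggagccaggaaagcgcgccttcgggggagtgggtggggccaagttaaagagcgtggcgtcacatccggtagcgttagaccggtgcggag

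The RefSeq promoter table held windows for 32 of the 36 genes, 35 windows in all. On either strand, the TGACGT core was in 10 of the 35 windows (28.6%), against 6.95% of all 33469 windows of the same length. The windows printed above, in which this motif was picked, are among the 10, so part of that share was fixed by the choice. GGGCGG, the GC box, was in 26 windows (74.3%), against 30.5% of all windows. CCAAT was in 20 windows (57.1%), against 34.0% of all, and TATAAA was in 5 windows (14.3%), against 12.9% of all. The windows of the splicing factor genes were richer in G and C (median 62.8%, against 51.2% of all) and held a median of 22 CG steps, against 5. A match of letters is not a binding site, and TGACGT and GGGCGG themselves contain CG.

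The 9 libraries held 7.52 to 10.1 gigabases of aligned sequence, of which 86.7% to 89.0% lay in the listed transcripts. The summed TPM of 6 of 7 T cell markers found was 2110 to 2459 in combination libraries, 1843 to 2373 in model libraries and 2347 to 3152 in normal libraries. Among these, Cd3g jumped within groups and moved the sums. It was at 190, 756 and 706 TPM in combination, 465, 223 and 335 in model and 245, 879 and 266 in normal libraries. Cd4 was at 98.1 to 142 TPM in combination, 76.5 to 186 in model and 202 to 234.6 in normal libraries, so the normal libraries lay above all others. None of the 6 passed the threshold, and all 6 had negative log2 fold changes in model against normal libraries (median -0.38, 3 without overlap), as did 4 in combination against normal libraries, all 4 without overlap. Markers of other blood cells moved with the groups. The 7 monocyte and neutrophil markers summed to 349 to 697 TPM in combination libraries, against 69.3 to 194 in model and 41.3 to 193 in normal libraries, most of it from Lyz2 and Tyrobp. In combination libraries Csf1r and Fcer1g rose past the threshold against model libraries, and Csf1r, Fcer1g and Lyz2 did against normal libraries. S100a8 of the same list was at 1.06 to 1.49 TPM in combination, 0 to 2.47 in model and 5.13 to 9.99 in normal libraries, and fell against normal libraries in both (limma adjusted p = 0.0426 for combination and 0.0292 for model). S100a9 was also lower in every combination and model library than in any normal library. The 5 platelet markers summed to 64.2 to 107, 15.5 to 30.2 and 8.40 to 27.1 TPM in the same order, with Ppbp at 0 in 1 model and 1 normal library. Pf4 and Gp1bb, the 2 of them tested, rose past the threshold in combination libraries against both other groups. The 3 of 5 erythroid markers found summed to 258 to 862 TPM in combination libraries, 2396 to 16138 in model libraries and 58.0 to 1115 in normal libraries. Of these 3, only Alas2 passed the threshold, in combination against model libraries, where it fell. The 5 B cell markers summed to 6.60 to 16.2 TPM in combination, 3.00 to 9.68 in model and 4.18 to 26.9 in normal libraries. The 7 cytotoxic and NK cell markers summed to 48.8 to 72.2 TPM in combination, 33.0 to 53.0 in model and 57.3 to 96.8 in normal libraries, with Ncr1 at 0 in 5 libraries and Gzmb at 0 in 2. Among them Klrd1 fell to 5.42 to 11.6 TPM in model libraries, against 24.1 to 36.5 TPM in normal libraries (limma adjusted p = 0.0269). In the file headers the combination libraries start with the letter L, whereas those of the other groups start with their group's initial. The part of these differences in the results below was not tested, and fewer cells of a type cannot be told apart from less RNA per cell.

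The 35 genes together held 0.917% of all TPM. Their total was 9870, 9118 and 7912 TPM in combination libraries 1 to 3, 9841, 8501 and 12161 TPM in model libraries, and 8618, 8661 and 7813 TPM in normal libraries. These totals include estimates that jumped between libraries, such as those of Hnrnpab, Hnrnpf and U2af2. They leave out assembled transcripts at loci with several names. Model replicate 3 was highest and normal replicate 3 lowest, and the groups overlapped. As a median over these genes, the log2 deviation from the mean of the 9 libraries was 0.17, 0.032 and -0.27 in combination libraries 1 to 3, 0.057, -0.029 and 0.32 in model libraries and -0.021, -0.076 and -0.17 in normal libraries.

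Hnrnpa1, which binds intronic and exonic silencers, had the highest mean, at 1493 ± 148 TPM in combination, 1438 ± 215 in model and 1377 ± 75.8 in normal libraries (SD, n = 3 each). It has 50 RefSeq pseudogenes named after it, the most among the 17 genes with any, so its level is uncertain where reads could be shared. Srsf3 and Srsf5 followed at means of 1006 and 982 TPM over the 9 libraries, and Hnrnpl and Hnrnpd at 761 and 567. The order of Srsf3 and Srsf5 was within their spread. Hnrnpll, the paralogue of Hnrnpl, was at 9.30 to 13.2 TPM in the 9 libraries, against 682 to 866 TPM for Hnrnpl. Srsf9, Srsf10 and Srsf1 had the lowest means among the SR proteins, at 17.1, 32.4 and 42.9 TPM.

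The model libraries were set against the normal ones to ask how CIA changed these genes. None of the 34 genes passed the threshold of 0.05 in limma with Benjamini-Hochberg adjustment over 14252 genes, of which 4.01% passed (2.32% higher and 1.69% lower). At an unadjusted p under 0.05, 7 of the 34 were higher and 0 lower, while 26.4% of all genes had such a p. The groups did not overlap for 11 of the 34, of which 10 were higher in model libraries, against 32.7% of all genes. The median log2 fold change was 0.15 over the 34 genes and -0.01 over all genes tested. The 7 were the SR family genes Srsf3, Srsf5, Srsf11 and Tra2b, the hnRNP genes Hnrnpc and Hnrnpd, and U2af1.

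Srsf3, the smallest SR protein, was at 1139, 1061 and 1588 TPM in model libraries and 908, 837 and 733 TPM in normal libraries. All 3 model libraries lay above all normal ones, with model replicate 3 far the highest. The log2 fold change was 0.59 ± 0.18 (SE), with an adjusted p of 0.0839 in limma. Srsf5 was at 1148, 1094 and 1595 TPM in model libraries and 953, 903 and 833 TPM in normal libraries, again without overlap. Its log2 fold change was 0.49 ± 0.15 with a limma adjusted p of 0.0938. Tra2b, a sequence-specific activator that binds GAA-rich enhancers, was at 621, 401 and 717 TPM in model libraries and 381, 372 and 320 TPM in normal libraries. Model replicate 2 lay close to the normal libraries, and the log2 fold change was 0.66 ± 0.21 with a limma adjusted p of 0.0941.

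Hnrnpd, also called AUF1 and known for binding AU-rich elements in mRNA, was at 646, 559 and 693 TPM in model libraries and 469, 455 and 466 TPM in normal libraries. All 3 model libraries were above the normal ones, which lay close together. Its log2 fold change was 0.44 ± 0.14 with a limma adjusted p of 0.0944. Srsf11, Hnrnpc and U2af1 had log2 fold changes of 0.64, 0.50 and 0.38 and limma adjusted p-values of 0.0982, 0.126 and 0.184. By class, 4 of 12 SR and SR-like genes, 2 of 17 tested hnRNP genes and 1 of 5 splice site recognition genes had an unadjusted p under 0.05. Srsf1, Srsf2, Srsf6 and Srsf9 had negative log2 fold changes, from -0.23 to -0.10.

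These values depended on 1 library. Without model replicate 2, 7 of the 34 genes rose in model libraries by the same limma test (Srsf3, Srsf5, Srsf11, Tra2a, Tra2b, Hnrnpc and Hnrnpd), and 2682 of all genes passed in place of 572.

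**Figure D1:**
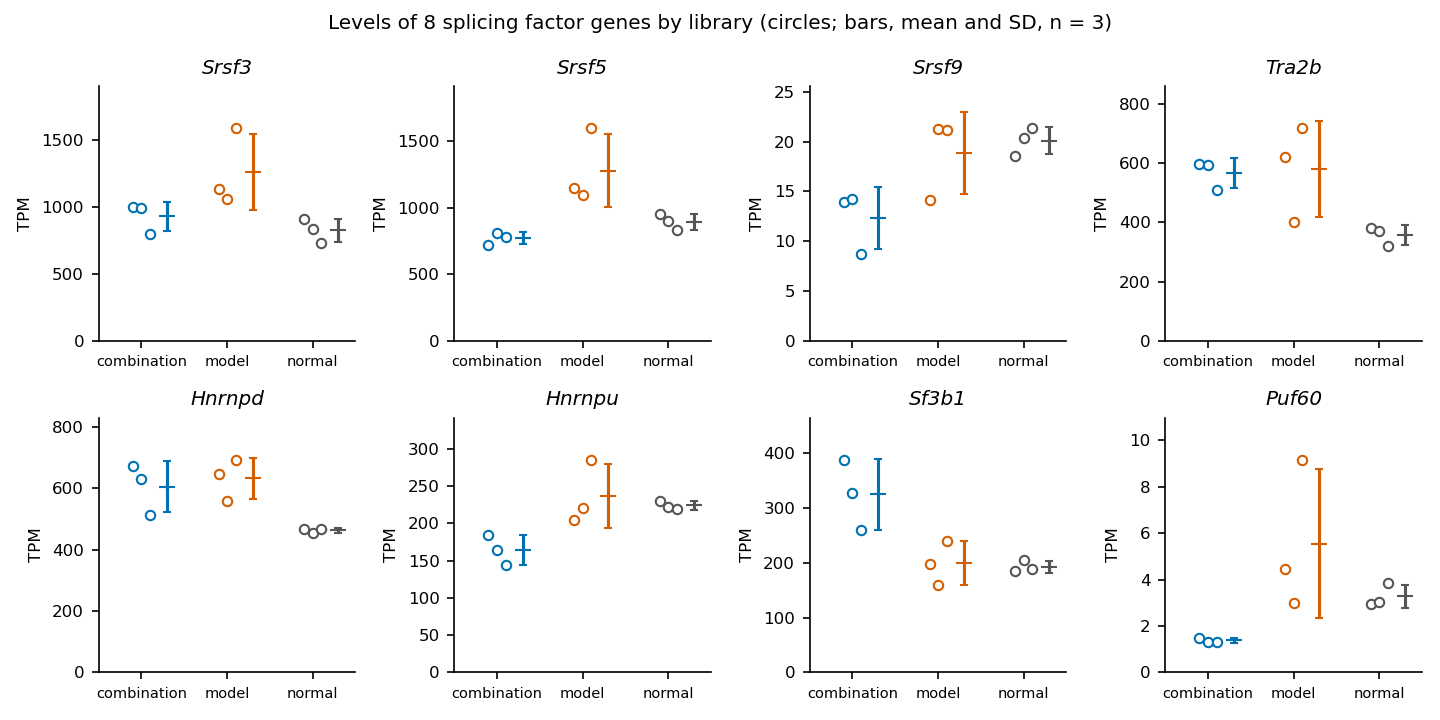
TPM of 8 splicing factor genes in each library (circles) with the mean and SD of each group (bars, n = 3), for combination, model and normal libraries from left to right on linear axes. Srsf3 and Srsf5 are highest in model libraries, Sf3b1 is highest in combination libraries, at 260 to 387 TPM, and Puf60 is lowest there.

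The comparison of combination with model libraries addressed the effect of the treatment in CIA rats. Of the 34 genes, 2 fell in combination libraries and 0 rose, against 4.15% of all genes past the threshold, 1.99% lower and 2.16% higher. The 2 were Srsf5 and Puf60. The groups did not overlap for 6 of the 34, against 26.7% of all genes. At an unadjusted p under 0.05, 1 gene was higher and 6 were lower, 7 of 34 in all, while 26% of all genes had such a p. The median log2 fold change was -0.10 over the 34 genes and 0.03 over all genes tested.

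Srsf5 was at 721, 812 and 779 TPM in combination libraries and 1148, 1094 and 1595 TPM in model libraries. The highest combination library lay below the lowest model library. Srsf5 fell to 0.61 times the model level, a log2 fold change of -0.71 ± 0.15, with an adjusted p of 0.0454 in limma. The call was close to the threshold: leaving out any 1 of 8 of the 9 libraries gave an adjusted p of 0.0646 to 0.11, and leaving out model replicate 2 gave 0.0277. The mix of Srsf5 isoforms in combination replicate 1 stood apart. There, 2 assembled isoforms of 1866 and 1994 bases that start 811 bases before the reference transcript held 174 and 194 TPM, against at most 1.60 TPM in any other library, while the reference isoform was at 81.7 TPM, against 364 to 834 elsewhere. Without combination replicate 1 the log2 fold change of Srsf5 was -0.66.

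Puf60, a poly-U binding protein that works with U2AF at the polypyrimidine tract, was at 1.48, 1.32 and 1.33 TPM in combination libraries and 4.47, 3.00 and 9.15 TPM in model libraries. Its log2 fold change was -1.35 ± 0.30, with an adjusted p of 0.0469 in limma. These few TPM are a small part of what was measured there, because the assembled locus also carries the name Scrib and its assembled transcripts are not counted by the rule. A 12-exon assembled transcript of 1930 bases over the exons of Puf60 held 71.7 to 264 TPM. With assembled transcripts assigned by exon overlap, Puf60 was at 92.3, 79.3 and 73.0 TPM in combination libraries, 194, 194 and 273 TPM in model libraries and 128, 125 and 111 TPM in normal libraries. The 3 groups did not overlap. On that assignment Puf60 fell in combination against model libraries (log2 fold change -1.41, limma adjusted p = 0.0165) and rose in model against normal libraries (0.84, limma adjusted p = 0.0305). Between combination and normal libraries the log2 fold change was -0.57 with a limma adjusted p of 0.0813. As with Srsf5, the call by the name rule was lost on leaving out any 1 of 8 libraries (adjusted p = 0.0675 to 0.133) and kept without model replicate 2 (0.0186).

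Sf3b1, the SF3B subunit that holds the branch point, was at 387, 327 and 260 TPM in combination libraries and 198, 159 and 240 TPM in model libraries. The groups did not overlap, but the log2 fold change of 0.70 ± 0.19 had a limma adjusted p of 0.0671. Hnrnpu, a nuclear matrix protein that binds both DNA and RNA, was at 184, 165 and 144 TPM in combination libraries and 204, 221 and 285 TPM in model libraries. Its log2 fold change was -0.52 ± 0.16 with a limma adjusted p of 0.0865, again without overlap. Srsf3, whose 3 combination libraries all lay below the 3 model libraries, had a log2 fold change of -0.42 ± 0.18 and a limma adjusted p of 0.166. For Tra2b, by contrast, the value was 0.00 ± 0.21, with 596, 595 and 508 TPM in combination libraries, inside the range of the model libraries.

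Combination libraries were also set against normal ones. None of the 34 genes passed the threshold, against 3.62% of all genes (2.02% higher and 1.6% lower), while 5 were higher and 5 lower at an unadjusted p under 0.05 (25.5% of all genes). The groups did not overlap for 12 of the 34, 6 in each direction, against 35.5% of all genes. The median log2 fold change was 0.07 over the 34 genes and 0.04 over all genes tested.

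Sf3b1 was at 387, 327 and 260 TPM in combination libraries and 185, 206 and 188 TPM in normal libraries. Its log2 fold change was 0.73 ± 0.19 with a limma adjusted p of 0.0637. Tra2b was at 596, 595 and 508 TPM in combination libraries and 381, 372 and 320 TPM in normal libraries, a log2 fold change of 0.66 ± 0.21 with a limma adjusted p of 0.0931. Both genes were higher in all 3 combination libraries than in any normal library.

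Srsf9, the SR protein of the lowest level here, was at 14.0, 14.3 and 8.71 TPM in combination libraries and 18.6, 20.4 and 21.3 TPM in normal libraries. Its log2 fold change was -0.69 ± 0.23 with a limma adjusted p of 0.107. Hnrnpu was at 164 ± 20.1 TPM in combination libraries and 224 ± 5.66 TPM in normal libraries (SD, n = 3 each), with a log2 fold change of -0.45 and a limma adjusted p of 0.119. The other genes at an unadjusted p under 0.05 were Hnrnph1, Hnrnpd and Hnrnpm, with log2 fold changes of 0.56, 0.38 and 0.42, and Srsf6, Srsf2 and Puf60, with -0.60, -0.36 and -0.84. Without model replicate 2, which enters the shared spread, Sf3b1, Tra2b and Hnrnph1 passed and were higher, and without combination replicate 3 Sf3b1 and Hnrnpm did. Of all 14252 genes, 1490 passed without model replicate 2 and 620 without combination replicate 3, in place of 516. Each group enters 2 of the 3 comparisons, so the fold changes of a gene are not independent between them.

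**Figure D2:**
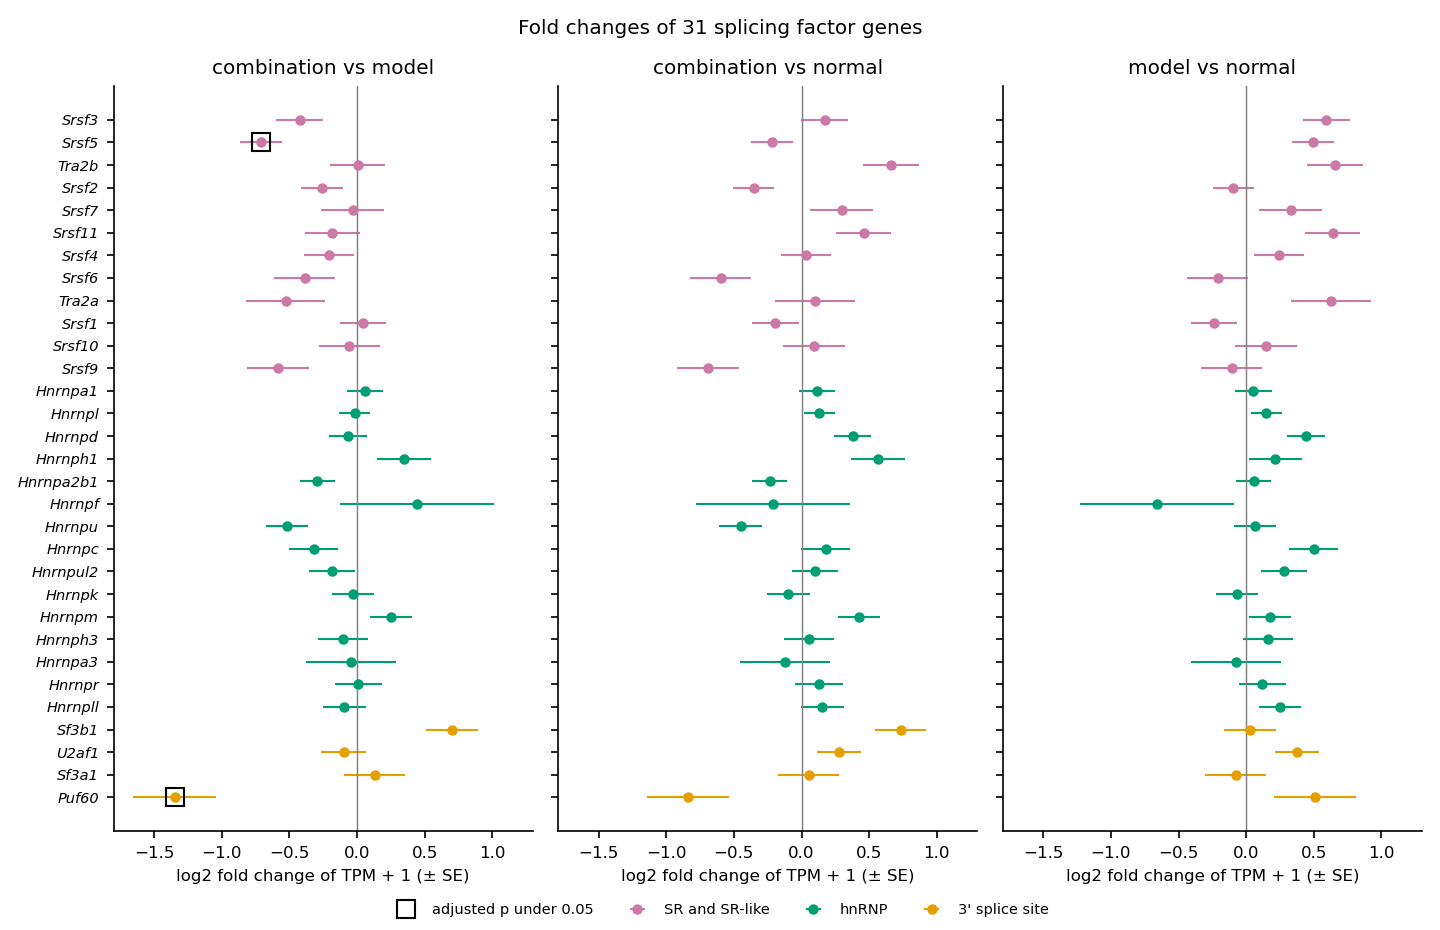
Log2 fold changes of TPM + 1 (points, ± SE) of 31 of the 34 genes tested, for combination against model, combination against normal and model against normal libraries, with the first-named group over the second and genes in order of mean level within each class. Squares mark Srsf5 and Puf60, past the threshold in combination against model libraries; Hnrnpab, U2af2 and Hnrnpul1, with SEs of 1.11 to 2.97, are left out.

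Several genes had estimates that jumped between libraries of 1 group. Hnrnpab was listed at 149 TPM in combination replicate 2 and at 0 in the other combination libraries, at 228 and 304 TPM in model replicates 1 and 3 and at 0 in model replicate 2, and at 278 TPM in normal replicate 2 and at 0 in the other normal libraries. Values of 0 in 5 of 9 libraries beside such values may be failed estimates, so no mean is given for it. Hnrnpf, which binds runs of G, was at 51.5 TPM in model replicate 2, against 171 to 318 TPM in the other 8 libraries. Of the 5 genes at a locus with several names, U2af2, the large U2AF subunit that binds the polypyrimidine tract, was at 149 TPM in normal replicate 3 and at 0.07 to 4.41 TPM in the other libraries by the name rule. By exon overlap U2af2 was at 209, 173 and 156 TPM in combination libraries, 144, 210 and 218 in model libraries and 157, 173 and 227 in normal libraries, with overlapping groups. Hnrnpul1 was at 2.19 TPM in combination replicate 2 by the name rule, against 84.3 to 126 TPM elsewhere, and at 81.6 TPM by overlap. Hnrnph2 by overlap was at 68.5, 70.6 and 61.3 TPM in combination libraries, 33.1, 26.5 and 63.2 in model libraries and 58.8, 52.7 and 47.3 in normal libraries. Hnrnpa3 averaged 296 ± 45.6 TPM in combination, 273 ± 34.5 in model and 239 ± 28.7 in normal libraries by overlap (SD, n = 3 each), and 23.5 to 62.4 TPM in the 9 libraries by the name rule. Its transcripts lie at 2 loci. By the name rule, 1 isoform on chromosome 3 held 15.6 to 28.3 TPM, and 15 isoforms on chromosome 10 together held 7.96 to 37.9 TPM.

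**Figure D3:**
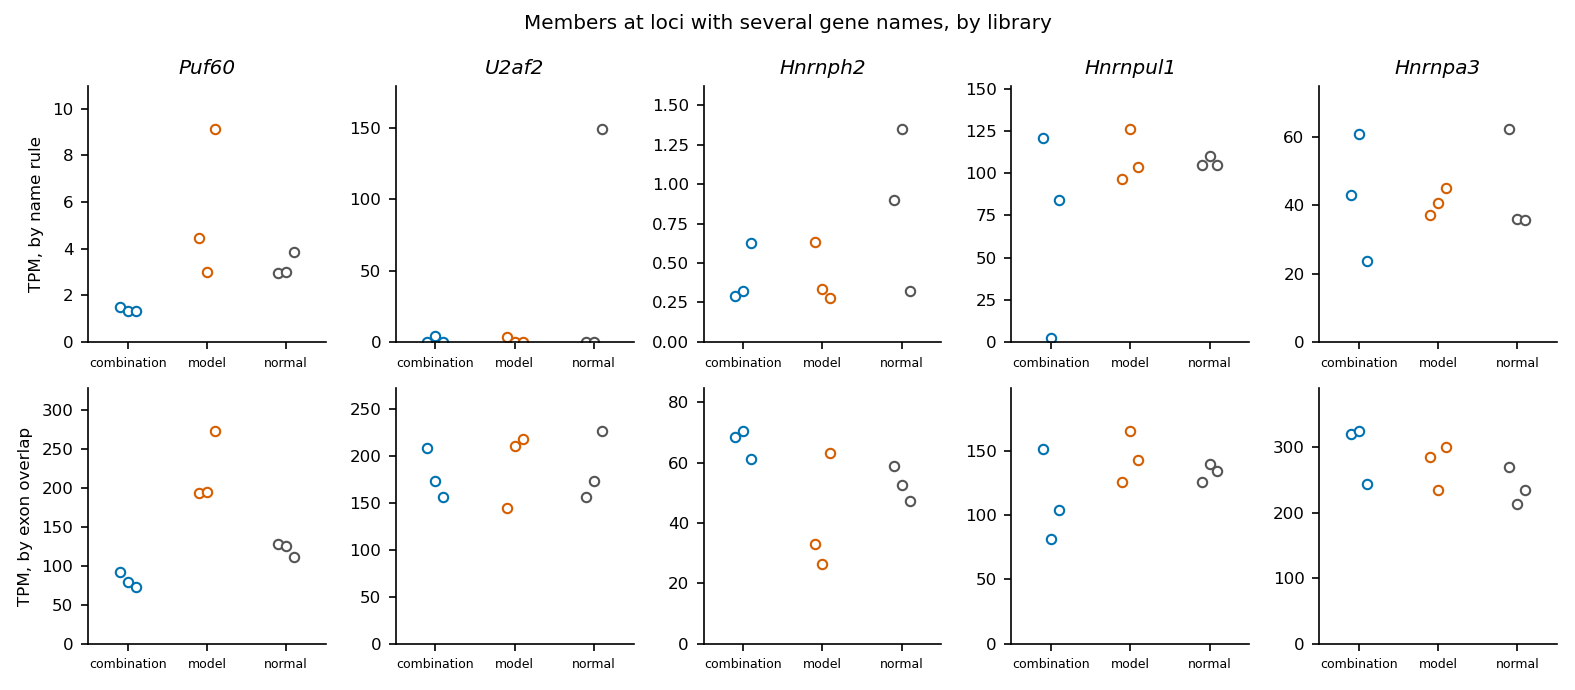
TPM per library (circles) of the 5 genes at loci with several gene names, with assembled transcripts of such loci left out by the name rule (upper row) or assigned by exon overlap (lower row), for combination, model and normal libraries from left to right. Puf60 keeps its order of groups in both rows, with 73.0 to 92.3 TPM in combination and 194 to 273 TPM in model libraries by overlap, while the single high U2af2 value of 149 TPM in a normal library has no counterpart in the lower row.

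Isoforms were compared by their share of the TPM of their gene, for 112 isoforms of 29 of these genes among 22938 isoforms tested. Assembled isoforms held 44.2% of the TPM of the splicing factor genes. Between model and normal libraries 0 of the 112 passed the threshold in limma, where 0.0698% of all isoforms did, and 14 had an unadjusted p under 0.05 (11.4% of all). Between combination and model libraries 3 of the 112 passed, where 0.113% of all isoforms did, and between combination and normal libraries 2 passed, where 0.135% of all did. At an unadjusted p under 0.05 there were 23 of the 112 against model libraries and 17 against normal libraries, against 10.6% and 9.7% of all isoforms. The 3 and 2 isoforms past the threshold were all of Srsf1, the founding SR protein, also known as SF2 or ASF. Shares within a gene depend on each other, so calls from the same gene are not independent.

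The total level of Srsf1 did not pass in any comparison. It was 50.5, 41.0 and 33.4 TPM in combination libraries, 39.6, 43.7 and 36.6 TPM in model libraries and 48.1, 49.4 and 44.0 TPM in normal libraries. Within that total, the composition changed. An assembled isoform of 16884 bases in 4 exons held 29.5%, 20.2% and 27.4% of Srsf1 TPM in combination libraries, 0.858%, 0.508% and 0.968% in model libraries and 3.32%, 0.884% and 0.72% in normal libraries. Its share rose in combination against model libraries (limma adjusted p = 0.0166) and against normal libraries (limma adjusted p = 0.027). A second one of 16556 bases held 18.8%, 15.1% and 14.0% in combination libraries and at most 1.13% in any other library. It rose in the same 2 comparisons, with limma adjusted p-values of 0.0388 and 0.0272. No combination library came near a library of another group in either isoform.

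A shorter isoform of 4053 bases held 2.68%, 2.54% and 2.18% in combination libraries and 15.6%, 15.7% and 17.6% in model libraries, and its share fell in combination against model libraries (limma adjusted p = 0.0388). In normal libraries it held 16.7%, 12.2% and 13.3%, and against these the limma adjusted p was 0.0618. The reference isoform of 5086 bases held 14.3%, 17.4% and 11% in combination libraries, 45.4%, 40.7% and 35.9% in model libraries and 41.6%, 52.2% and 42.6% in normal libraries. Its limma adjusted p-values of 0.108 against model and 0.0553 against normal libraries missed the threshold, although the groups did not overlap.

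Both long isoforms share 1 exon of 15281 bases. It begins where the second reference exon begins, covers the reference introns that follow and runs past the reference end of Srsf1, which lies at position 75341197 of chromosome 10 on the plus strand of rn6. Of the 17 isoforms of the gene, 7 end past it, by up to 18055 bases, and Vezf1, the next gene on that strand, begins 24624 bases after it. Counted together without a test, isoforms ending past the reference end held 69.5%, 65.2% and 72.2% of Srsf1 TPM in combination libraries, 4.43%, 2.74% and 4.91% in model libraries and 6.93%, 4.51% and 3.71% in normal libraries. That sum was chosen after the isoform shares were seen.

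TPM divides by length, so the same reads spread over a longer transcript give a lower value. The Srsf1 locus as a whole took 349, 301 and 292 kilobases of coverage per gigabase aligned in combination libraries, 123, 122 and 97.6 in model libraries and 161, 153 and 133 in normal libraries. The exons that lie wholly past the reference end took 8.12, 7.09 and 8.49 kilobases per gigabase in combination libraries, 3.29, 2.06 and 2.61 in model libraries and 4.90, 2.46 and 1.99 in normal libraries. On both measures every combination library was above every other library. The share of the locus coverage that these downstream exons took overlapped between the groups, at 2.33%, 2.36% and 2.91% in combination libraries, 2.67%, 1.69% and 2.68% in model libraries and 3.05%, 1.60% and 1.49% in normal libraries. The TPM shares of isoforms ending past the reference end, by contrast, did not overlap between combination and other libraries. The long exon that crosses that end is not among these downstream exons. With reference transcripts alone, Srsf1 fell in combination against normal libraries, 1 of 88 genes past the threshold on that setting. The Srsf1 isoform calls were lost with only the 2 compared groups in the fit, and leaving out 1 library gave 0 to 4 calls against model and 0 to 2 against normal libraries: 0 in both without model replicate 3 or combination replicate 1, and 4 against model libraries without normal replicate 1.

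**Figure D4:**
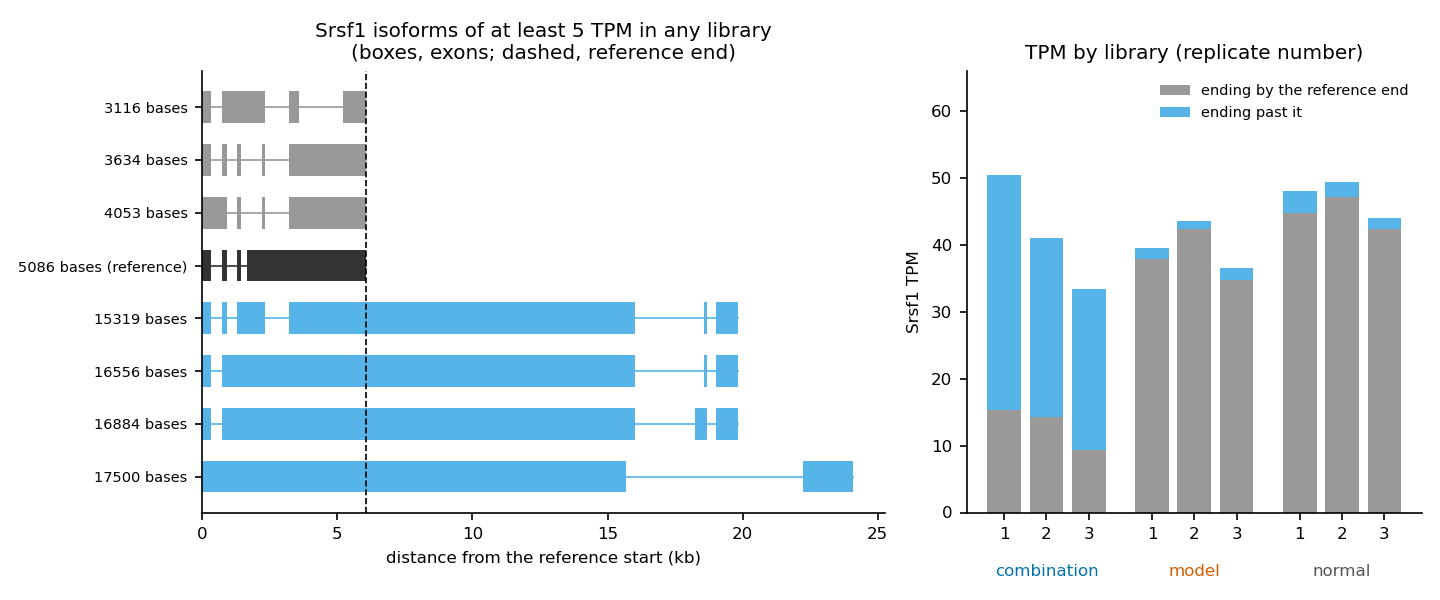
Left, exons (boxes) and introns (lines) of the 8 Srsf1 isoforms with at least 5 TPM in any library, by distance from the reference start in kilobases; the reference isoform is dark, and isoforms ending past the reference end (dashed) are blue. Right, stacked bars of Srsf1 TPM per library in isoforms ending by or past the reference end; the blue part holds 65.2% to 72.2% in combination libraries and at most 6.93% in model and normal libraries.

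Single exons were followed as a measure added after the data were seen. Inclusion is the share of TPM in isoforms that keep an exon, among isoforms that keep it inside the transcript or skip it within an intron. Among 8787 cassette exons tested, 83 lay in 26 of the splicing factor genes. Their median length was 136 bases, against 117 for all, and 31 of 83 (37.3%) had a length divisible by 3, against 36.9% of all. Inclusion had a median of 40.5% in these exons and 51.1% in all. In limma 0 of the 83 passed in model against normal libraries, where 0.159% of all exons did. In combination against model and against normal libraries 0 passed too, where 0.091% and 0.216% of all exons did. At an unadjusted p under 0.05 there were 9, 7 and 9 of the 83 in these 3 comparisons, against 10.3%, 8.23% and 10.6% of all exons, and the smallest adjusted p-values were 0.195, 0.272 and 0.119.

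The exons of smallest p in each comparison lay in 5 genes. The 70-base exon of Hnrnpl, at chromosome 1, 87002115 to 87002184 on the plus strand of rn6 and part of a reference transcript, was kept in 44.2%, 45.9% and 46.9% in combination libraries, 64.6%, 61.8% and 69.7% in model libraries and 51.5%, 50.6% and 52.8% in normal libraries. The 3 groups did not overlap, with model libraries highest and combination libraries lowest. Nearly all of this inclusion came from 1 assembled isoform, whose share of Hnrnpl TPM was 51.5% in normal replicate 1 and 69.7% in model replicate 3. The limma adjusted p was 0.272 for combination against model and 0.297 for model against normal libraries. The 109-base exon of Srsf11, at chromosome 2, 264850005 to 264850113 on the minus strand, was kept in 60.4%, 49.3% and 52.1% in combination libraries, 62.2%, 57.7% and 68.0% in model libraries and 45.0%, 37.5% and 39.9% in normal libraries. Normal libraries were lowest, and the limma adjusted p for model against normal was 0.195.

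The 268-base exon of Srsf6, at chromosome 3, 159306578 to 159306845 on the plus strand, was kept in 24.5%, 21.5% and 22.9% in combination libraries, 28.8%, 33.9% and 32.9% in model libraries and 35.9%, 36.2% and 36.1% in normal libraries. The groups were in order without overlap, with a limma adjusted p of 0.218 for combination against normal. The 129-base exon of Tra2a, at chromosome 4, 78907089 to 78907217 on the minus strand, was kept in 8.21% ± 2.60 in combination libraries, 13.0% ± 8.19 in model libraries and 33.5% ± 8.08 in normal libraries (SD, n = 3 each). The limma adjusted p was 0.183 for combination against normal and 0.32 for model against normal. A 135-base form of this exon, 78907083 to 78907217, is in a reference transcript and was kept in 66.2% to 89.2% over the 9 libraries. Isoforms with that form counted neither as keeping nor as skipping the 129-base form. Low inclusion of the 129-base form thus does not show that this stretch was skipped. The 147-base exon of Srsf1, at chromosome 10, 75353370 to 75353516, lies past its reference end and was kept in 1.02% ± 0.37, 7.34% ± 3.56 and 17.3% ± 6.97 in combination, model and normal libraries. Its limma adjusted p for combination against normal was 0.119. The 1 isoform that keeps this exon was at 0.131 to 0.29 TPM in combination, 0.0616 to 0.16 in model and 0.167 to 0.382 in normal libraries. Isoforms that skip it include the long isoform of 16556 bases, at 4.66 to 9.51 TPM in combination libraries and at most 0.413 TPM in any other. A 471-base form of this exon, 75353370 to 75353840, contains all of its bases and was kept in 57.4% to 98.5% over the 9 libraries. The long isoform of 16884 bases has that form and counted neither as keeping nor as skipping the 147-base form. Low inclusion of the 147-base form thus does not show that this stretch was skipped. In these exact forms, the exons of Srsf11, Srsf6, Tra2a and Srsf1 are in assembled transcripts only. Whether any of the 5 alters a reading frame was not tested.

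The 276-base exon of Tra2b was kept in 89.2% to 91.9% in combination libraries, 87.2% to 91.6% in model libraries and 89.4% to 91.3% in normal libraries, which overlapped. The 461-base exon of Srsf7 was kept in 89.7% to 90.4% in combination, 85.3% to 90.4% in model and 90.8% to 93.6% in normal libraries. Normal libraries lay above the others without overlap, with limma adjusted p-values of 0.74 for combination and 0.578 for model against normal. Both exons were picked after their values were seen. As internal exons, both are in assembled transcripts only. Inclusion of the Tra2b exon is the share of its 1 assembled isoform, which held 89.8% of Tra2b TPM over the libraries. Genes of this set with a mean of at least 5 TPM, 33 in number, had a median of 5 isoforms, against 3 for all 8771 such genes, at a median level of 182 TPM against 21.3 TPM.

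**Figure D5:**
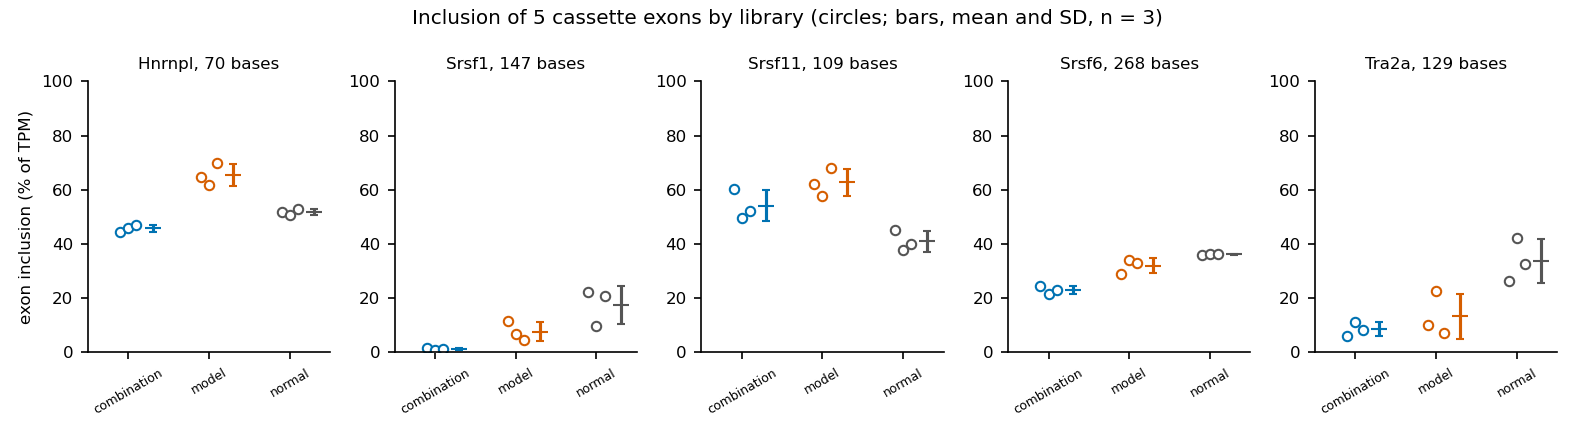
Inclusion of 5 cassette exons, in percent of TPM, per library (circles) with the mean and SD of each group (bars, n = 3), for combination, model and normal libraries from left to right. The 70-base exon of Hnrnpl is at 44.2% to 46.9% in combination libraries, 61.8% to 69.7% in model libraries and 50.6% to 52.8% in normal libraries; none of the 5 passed the threshold after adjustment.

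Other genes of the splicing pathway were read from 7 lists. Of 36 other splicing regulators tested, 1 rose in model against normal libraries: Sfpq, a paraspeckle protein, at 331 ± 84.6 TPM in model libraries and 183 ± 18.1 TPM in normal libraries (SD, n = 3 each; limma adjusted p = 0.0476), against 2.32% of all genes that rose. None of the 19 Sm and snRNP proteins, 12 further U2 snRNP and branch point genes, 26 tri-snRNP, Prp19 complex and helicase genes, 13 exon junction complex and SR-related genes, 7 SR protein kinases or 10 nonsense-mediated decay genes passed there. At an unadjusted p under 0.05, 13 of the 26 tri-snRNP, Prp19 complex and helicase genes were higher and 0 lower, with a median log2 fold change of 0.36, while 26.4% of all genes had such a p (2051 higher and 1714 lower of 14252). For the 12 U2 snRNP genes the count was 6 higher and 0 lower, with a median of 0.34, and for the 19 Sm and snRNP genes 1 higher and 1 lower, with a median of -0.02. The 13 exon junction complex genes had 5 higher and 2 lower, the 7 kinases 0 higher and 1 lower, the 10 decay genes 3 higher and 0 lower, and the 36 other regulators 4 higher and 4 lower. The median over all genes was -0.01.

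Between combination and model libraries, 1 of the 12 U2 snRNP genes and 1 of the 36 other regulators passed, both lower, against 1.99% of all genes that fell. Sf3b2, the SF3B subunit that contacts RNA beside the branch point, was at 16.4 ± 0.36 TPM in combination libraries and 36.1 ± 6.81 TPM in model libraries, while Sf3b1 did not pass (log2 fold change of Sf3b2 -1.08, limma adjusted p = 0.0283). Raly, an hnRNP close to Hnrnpc, was at 361 ± 29.4 TPM in combination libraries and 572 ± 67.5 TPM in model libraries (log2 fold change -0.66, limma adjusted p = 0.0344). Between combination and normal libraries, 1 of 26 tri-snRNP and helicase genes rose and 1 of 36 other regulators fell, against 2.02% of all genes higher and 1.6% lower. Ddx42, a helicase bound to SF3B, was at 164 ± 34.8 TPM in combination libraries and 89.3 ± 5.43 TPM in normal libraries (0.85, limma adjusted p = 0.0388). Zranb2, a zinc finger protein that binds GGU-containing RNA, was at 8.96 ± 1.41 TPM in combination libraries and 42.3 ± 2.61 TPM in normal libraries (-2.13, limma adjusted p = 0.029). In the 4 lists of Sm and snRNP proteins, exon junction complex genes, SR protein kinases and decay genes, 0 genes passed in either comparison with combination libraries. At an unadjusted p under 0.05 these 4 lists had 5 genes higher and 6 lower against model libraries, and 5 higher and 4 lower against normal libraries, while 26% and 25.5% of all genes had such a p. Not every list gene was found: Srek1ip1, Scaf11 and Qki had no transcript under their name.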

How the data were processed

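Per the labels' protocols, Trizol-extracted RNA went into NEBNext Ultra RNA libraries. Per the submitters' processing notes, bcl2fastq and HISAT2 were used with rn6 (versions not given in the sources used here), while StringTie 1.3.3b, per the file headers, gave estimates for a fixed set of 80092 transcripts. Other values of the deposited tables, which hold attributes as text, are the authors' coverage, FPKM and TPM; counts are not given, so count tests and counting intervals were not used.

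TPM was summed per gene. Assembled transcripts at a locus with several names were left out of named genes (4.28% of TPM). Genes whose mean reached 1 TPM were tested on log2(TPM + 1), which understates changes of low genes, with limma 3.58.1 (R 4.3.3), with an intensity trend over the 9 libraries and 3 groups, Benjamini-Hochberg adjustment and a threshold of 0.05. Isoform shares (5% to 95%, genes of at least 5 TPM) and exon inclusion were tested on the arcsine square root. Genes described with every library were those past the threshold and the 4 of smallest p in each comparison; of exons, the 2 of smallest p, a choice made after the data were seen. The members and lists were chosen with earlier results of these data known. On simulated data for model against normal libraries with 14252 genes, recovery was 4.80% for changes of 1.5-fold, 39.2% for 2-fold and 82.4% for 4-fold, with 5.98% false calls; for isoform shares 42.2% of shifts of 0.4 arcsine units, with 8.51% false calls. The genes changed in the simulation were few and drawn at random over all levels, so recovery may differ for the splicing factor genes. Python 3.11.15, pandas 2.3.3, numpy 2.4.6 and matplotlib 3.10.9 were used. Alternatives are in the closing section.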

Additional observations from a re-analysis of the deposited data

How the results depend on the processing

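In model against normal libraries the count of 0 genes past the threshold became 1 with exon overlap (Puf60), 6 with array weights, whose estimate did not reach its convergence tolerance, and 0 to 7 on leaving out 1 library, with 7 only without model replicate 2. Over all genes, 677, 2654 and 2682 passed with exon overlap, with array weights and without model replicate 2, in place of 572. In combination against model libraries the count of 2 became 1 with a pseudocount of 5 (Srsf5), 1 with a mean of at least 5 TPM (Srsf5), and 1 without the intensity trend (Puf60). It became 4 with FPKM, 5 with median-ratio scaling and 5 with array weights, each of which added Sf3b1 and Hnrnpu. Over all genes, 1306, 1563 and 2757 passed on these settings, in place of 592. Haemoglobin, mitochondrial and ribosomal protein genes held 33.5% to 45.7% of TPM per library. Without them the count became 3, where 1376 of all genes passed. It was 0 without a filter, 0 with reference transcripts only, 0 with only the 2 groups compared and 0 with the replicate block. On leaving out 1 library it was 0 to 2, with 2 only without model replicate 2, where 1212 of all genes passed. In combination against normal libraries the count of 0 became 3 with FPKM, 5 with median-ratio scaling, 13 with array weights and 3 with only the 2 groups compared. Over all genes, 1181, 1415, 5408 and 1235 passed on these settings, in place of 516. The count became 1 without haemoglobin, mitochondrial and ribosomal protein genes (Sf3b1), where 1242 of all genes passed. With reference transcripts only it became 1 (Srsf1), where 88 of all genes passed. On leaving out 1 library it was 0 to 3, with 3 without model replicate 2 and 2 without combination replicate 3. Over all genes, 1490 and 620 passed in those cases. The cause of these changes was not tested.

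For isoform shares, the 3 calls against model libraries became 0 with reference transcripts only, 0 with only the 2 groups compared, 0 with the replicate block and 0 to 4 on leaving out 1 library. The 2 calls against normal libraries became 4 with shares of at least 1%, 4 on the log2 odds scale, 0 under the same 3 settings and 0 to 2 on leaving out 1 library. Equal replicate numbers showed no pairing: residuals correlated at -0.12 to 0.066, and 2 of 9 libraries correlated best with their own number.

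Signs turned only for log2 fold changes that did not pass. Hnrnpd in combination against model became 0.029 without haemoglobin, mitochondrial and ribosomal protein genes, with -0.15 to 0.051 on leaving out 1 library. Hnrnpu in model against normal became -0.0043 with FPKM and -0.011 without those genes (-0.077 to 0.16 on leaving out 1 library), and Sf3b1 became -0.040 and -0.046 (-0.11 to 0.18). Srsf9 in model against normal became 0.047 with reference transcripts only (-0.20 to 0.078 on leaving out 1 library). Tra2b in combination against model became -0.055 with median-ratio scaling, -0.14 with reference transcripts only and -0.043 with array weights (-0.24 to 0.18 on leaving out 1 library). The median over the genes tested, to which no test applies, turned to -0.0096 in combination against normal with reference transcripts only, and to 0.024 in combination against model without combination replicate 3. Over all genes, the 592 past the threshold in combination against model became 12 with the replicate block, 28 with only the 2 groups compared and 2757 with array weights. The 572 in model against normal became 2682 without model replicate 2 and 2654 with array weights, and the 516 in combination against normal became 5408 with array weights. Depth is known only as aligned bases, so counting error was not separated from other spread. On the simulated data, with 3 libraries a group, most changes of 1.5-fold and 2-fold were missed. Recovery for the splicing factor genes alone was not tested.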
